A study of Homo sapiens with 16 samples.

Results

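The comparison described here is that of ME180 cells given all-trans retinoic acid (ATRA) for 6 h with ME180 cells given the dimethyl sulfoxide (DMSO) vehicle. It takes 8 of the 16 arrays of the series, chosen by their labels: 4 arrays of cells given 10 µM ATRA for 6 h and 4 arrays of cells given DMSO, for which no treatment time is labelled. The other 8 arrays, 4 after 1 h and 4 after 3 h at the same dose, entered the fit to help estimate the spread and are used for comparison. ME180 is an established human cervical epidermoid carcinoma line that came from an omental metastasis, and all groups were grown in the same serum-containing medium. Because the vehicle has no time of its own, hours in culture and ATRA cannot be told apart. Whether the 4 arrays of a group came from separate cultures is not labelled, and the tests therefore cover only the spread from array to array, which may be technical.

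Retinoic acid is the active derivative of vitamin A. It binds retinoic acid receptors, which pair with retinoid X receptors on DNA at direct repeats of a short half-site and switch target genes on when the ligand is present. Among the best known targets are the CYP26 enzymes, which oxidise and so remove retinoic acid, and in stratified epithelia retinoids are known for restraining squamous differentiation.

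The upstream sequences of CYP26A1 and TRIM31 are printed because both genes differed widely among the 6 h arrays and both hold such a repeat. The half-site was searched as AGGTCA and in 3 variants. The first variant was AGTTCA. The second variant was GGGTCA. The remaining variant was GGTTCA. A repeat was counted where any of these 4 was followed on the same strand by any of them after a spacer of 1, 2 or 5 bases, on either strand, within the 250 bases before the start. Of 117 genes named by rule, 85 were searched in the RefSeq promoter table (GRCh38.p14). Of these, 2 held a repeat, CYP26A1 and TRIM31, each with a spacer of 5 bases. The promoters of the other named genes were not searched. They include RDH10, FABP5, SDR16C5, HEY1, NDRG1 and RIPK2, whose shared chromosome was left out of the search of named genes. Whether those genes hold a repeat was therefore not tested. Over all 35116 promoters of the table the share with a spacer of 5 was 0.074%, with a spacer of 1 it was 0.0968% and with a spacer of 2 it was 0.0313%. The printed windows lie at chr10:93073643-93073892 on the plus strand and at chr6:30113091-30113340 on the minus strand, and each is written 5′ to 3′ in the direction of its gene. Capitals mark the half-sites, which read on the opposite strand and lie from position -90 to -74 before the start of CYP26A1 and from position -200 to -184 before that of TRIM31.
CYP26A1: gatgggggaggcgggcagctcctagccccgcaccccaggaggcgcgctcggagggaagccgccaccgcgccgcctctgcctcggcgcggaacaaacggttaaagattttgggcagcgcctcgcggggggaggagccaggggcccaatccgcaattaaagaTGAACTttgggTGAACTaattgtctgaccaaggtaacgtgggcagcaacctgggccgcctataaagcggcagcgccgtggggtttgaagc
TRIM31: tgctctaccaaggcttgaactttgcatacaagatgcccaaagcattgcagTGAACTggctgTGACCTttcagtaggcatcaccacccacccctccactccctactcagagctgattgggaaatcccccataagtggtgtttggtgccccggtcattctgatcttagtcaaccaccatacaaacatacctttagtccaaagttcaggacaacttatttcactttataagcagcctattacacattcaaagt
A match is a description of the letters and no evidence that a receptor was bound there.

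Intensities came from an Illumina bead array and were deposited on a log2 scale, already brought to one distribution, with a lowest value of 4.23 and array medians near 4.74. A gene or unnamed probe was tested where its log2 value reached 6 in at least 4 of the 16 arrays, which kept 12467 features, 9651 of them with a gene symbol. Keratinocyte genes marked the cells: of 19 squamous basal genes with a probe, 17 reached 6 in all 8 arrays, among them KRT5 at 13.56 to 14.03 with DMSO and 13.44 to 14.04 at 6 h. Of 20 simple epithelial genes 11 did so. The leukocyte marker PTPRC, the endothelial marker PECAM1 and the fibroblast markers COL1A2 and COL3A1 stayed below 6 in every array. Other markers on these lists did not. The fibroblast marker ACTA2 and the leukocyte marker CD68 reached 6 in all 16 arrays, and COL1A1 and the endothelial marker VWF in 13.

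The 4 arrays labelled 6 h were not alike in the retinoid response. In replicates 2 and 4, CYP26A1 stood below all 4 DMSO arrays, while in replicates 1 and 3 it stood far above them. Whether the labels of replicates 2 and 4 are right cannot be told from the data used here, and every 6 h mean and fold change rests on them. The results below use all 4 arrays as labelled. The count of calls is also given with every single array and every pair of 6 h arrays left out, all pairs being treated alike, because picking replicates 2 and 4 by their retinoid genes and then testing retinoid genes would be circular. Why the 4 arrays differ was not tested.

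The first comparison asks which genes differ after 6 h of ATRA. No gene passed the test: limma, with the replicate 1 arrays as a set of their own, called 0 of 12467 features (0%) at an adjusted p under 0.05 (Benjamini-Hochberg over all features), and the smallest adjusted p was 0.131. At an unadjusted p under 0.05 there were 1416 features (11.4%), 600 higher at 6 h and 816 lower. All 4 arrays at 6 h lay above all 4 DMSO arrays in 128 features (1.03%) and below them in 119 (0.955%). The median log2 fold change over all features was -0.01 and the range ran from -2.33 to 2.95. In the same fit 384 features (3.08%) passed at 3 h and 117 (0.938%) at 1 h against the same DMSO arrays. The values below are therefore given as values, with "higher" and "lower" describing the arrays and not a call.

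The retinoic acid-degrading enzymes showed the disagreement most plainly. CYP26A1, which oxidises retinoic acid, measured 7.26, 8.58, 8.83 and 7.79 in DMSO replicates 1 to 4. At 6 h it measured 12.95, 4.53, 13.13 and 5.45 in replicates 1 to 4. Replicates 1 and 3 were thus as high as the 3 h arrays, which ran from 12.18 to 14.02, and replicates 2 and 4 stood below 6, the value used as the filter on low intensities. The fitted log2 fold change was 0.90 with a standard error (SE) of 1.65 (limma adjusted p = 0.902), and further probes of the gene gave 2.33 and 2.02. CYP26B1, a second enzyme of the same kind, measured 6.22, 6.96, 6.88 and 7.80 with DMSO and 10.68, 6.70, 11.51 and 7.12 at 6 h. Here replicates 2 and 4 lay inside the DMSO range rather than below it. Its log2 fold change was 2.04 (SE 0.94, limma adjusted p = 0.437).

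DHRS3, which reduces retinal to retinol and so lowers the supply of retinoic acid, followed CYP26A1. It measured 11.48, 11.39, 11.19 and 11.14 with DMSO and 12.33, 9.24, 12.69 and 10.27 at 6 h, so that replicates 1 and 3 lay above every DMSO array and replicates 2 and 4 below every one. The log2 fold change of -0.17 (SE 0.53) is the mean of opposite differences. CRABP2, the cellular binding protein that hands retinoic acid to its receptors, was bright in all arrays, at 13.37, 13.56, 13.34 and 13.42 with DMSO and 13.82, 13.18, 14.01 and 13.21 at 6 h. Its order among the 6 h arrays was the same kind as that of DHRS3, over a range of less than 1 on the log2 scale.

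**Figure D1:**
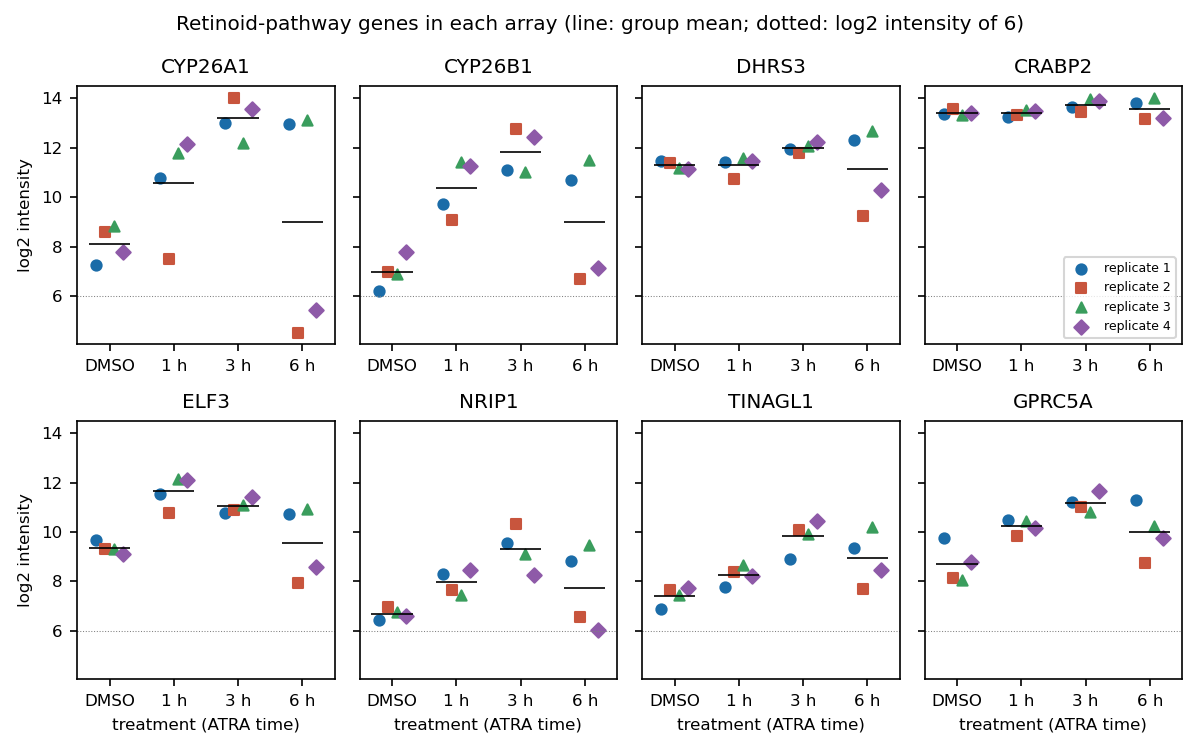
Log2 intensity of 8 retinoid-pathway genes in each of the 16 arrays, by treatment, with symbols for the replicate numbers, a line at the group mean and a dotted line at 6. At 6 h, CYP26A1 stood at 12.95 and 13.13 in replicates 1 and 3 and at 4.53 and 5.45 in replicates 2 and 4, while the 3 h arrays ran from 12.18 to 14.02.

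The enzymes that make retinoic acid did not share this split. ALDH1A3, which oxidises retinal to retinoic acid, measured 11.11, 11.99, 12.34 and 13.00 with DMSO and 12.32, 12.88, 13.12 and 13.27 at 6 h. Each 6 h array was higher than the DMSO mean of its array set, by a fitted 0.79 (SE 0.21, limma adjusted p = 0.189), though the groups overlap. ALDH1A1, another enzyme of that step, measured 6.46, 8.40, 8.44 and 7.65 with DMSO and 6.50, 6.59, 6.53 and 6.91 at 6 h, with a log2 fold change of -1.10 (SE 0.40, limma adjusted p = 0.315). In replicates 2 to 4 all 6 h arrays were lower than all DMSO arrays, and in replicate 1 the values were nearly equal. RDH10, which makes retinal from retinol, had a log2 fold change of 0.55 (SE 0.25). The other tested genes of retinoid metabolism and transport are not all enzymes that make retinoic acid. They were RDH11, RDH12, RDH13, RDH14, SDR16C5, RETSAT and FABP5, and they lay between -0.29 and 0.27.

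Of 33 genes on the list of retinoid metabolism and transport, 14 passed the filter on low values. Of these 0 passed the test in either direction against a background of 0%, 9 were higher and 5 lower, and the median log2 fold change was 0.15 beside -0.01 over all features. Taken array by array, relative to DMSO within the array set, the median of the list was 0.49, -0.27, 0.34 and -0.31 in 6 h replicates 1 to 4. Over all features these medians were -0.03, -0.01, -0.02 and 0.00. Replicates 1 and 3 were on the higher side and replicates 2 and 4 on the lower side.

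The receptors themselves differed less among arrays. RXRA, a retinoid X receptor and partner of the retinoic acid receptors, measured 10.71, 12.27, 12.35 and 11.996 with DMSO and 9.46, 11.82, 11.59 and 11.56 at 6 h. Each 6 h array was lower than the DMSO arrays of its own set, with a log2 fold change of -0.72 (SE 0.17, limma adjusted p = 0.148). RARA, a ligand-binding retinoic acid receptor, had a log2 fold change of 0.00 (SE 0.26), with 7.75, 8.15, 8.21 and 8.47 against 7.45, 7.87, 8.05 and 9.22. RARG stood under 6 in all but replicate 1 of either group, at 6.62 with DMSO and 6.55 at 6 h. Among the coactivators and corepressors, CREBBP had -0.51 (SE 0.18), SIN3A -0.40 (SE 0.17) and HDAC3 -0.27 (SE 0.13). Over the 14 tested of 22 listed receptors and coregulators, 0 passed the test, 6 were higher and 8 lower, and the median was -0.15.

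NRIP1, a ligand-dependent corepressor that is itself a retinoid target, measured 6.43, 6.98, 6.78 and 6.60 with DMSO and 8.81, 6.57, 9.48 and 6.03 at 6 h, a log2 fold change of 1.03 (SE 0.62, limma adjusted p = 0.574). Replicates 1 and 3 lay above every DMSO array, replicate 2 inside their range and replicate 4 below it. ELF3, an epithelial transcription factor, measured 9.69, 9.32, 9.30 and 9.10 with DMSO and 10.74, 7.92, 10.92 and 8.58 at 6 h, so it repeated the order of DHRS3 with replicates 2 and 4 below every DMSO array. IRF1, the interferon regulatory factor, measured 10.61, 9.90, 9.77 and 9.98 with DMSO and 11.66, 9.16, 11.12 and 10.00 at 6 h. Only replicate 2 of these was below the DMSO range.

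For TINAGL1 and GPRC5A, all 4 arrays at 6 h were higher than the DMSO mean of their set, though unequally and with overlapping groups. TINAGL1, a secreted matrix glycoprotein, measured 6.90, 7.64, 7.45 and 7.73 with DMSO and 9.36, 7.70, 10.19 and 8.48 at 6 h, a log2 fold change of 1.50 (SE 0.42, limma adjusted p = 0.201). GPRC5A, the retinoic acid-induced orphan receptor, measured 9.76, 8.16, 8.08 and 8.78 with DMSO and 11.30, 8.75, 10.23 and 9.77 at 6 h, a log2 fold change of 1.32 (SE 0.36, limma adjusted p = 0.19). In both genes replicate 2 differed least from the DMSO mean of its set and lay below DMSO replicate 4. LCN2, a secreted siderophore-binding protein, stood apart in replicate 2 alone, at 9.22 against 11.93, 11.64 and 11.61 in the others and 11.10 to 11.64 with DMSO.

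The homeobox targets were not higher. HOXB5, a patterning gene, measured 7.86, 8.94, 8.80 and 8.63 with DMSO and 7.17, 8.51, 8.24 and 7.92 at 6 h, with a log2 fold change of -0.60 (SE 0.17, limma adjusted p = 0.201). HOXB2 and HOXB4 had -0.07 and 0.06, and the HOX cofactors MEIS1 and MEIS2 -0.41 and -0.19. Of 42 genes on the list of retinoic acid-induced targets 23 passed the filter on low values, 0 passed the test, 11 were higher and 12 lower, and the median was -0.01. By array the median was 0.70, -0.42, 0.27 and -0.54 in 6 h replicates 1 to 4. This list shares CYP26A1, CYP26B1 and DHRS3 with the list of retinoid metabolism, so both medians rest in part on the same probes.

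The genes that differed most among the 6 h arrays were then ranked without regard to any list, by the standard deviation (SD) of the difference from DMSO within the array set. CYP26A1 came first, with an SD of 5.01 against a median of 0.33 over all features. The others among the first 10 with a symbol were CYP26B1, TRIM31, STAT4, TNFSF10, CCL20, DEFB103A, KRTAP3-1, TGFB3 and CAVIN2. TRIM31, an E3 ubiquitin ligase, was below 6 in all DMSO arrays, at 4.75, 4.55, 4.59 and 4.67, and measured 9.05, 4.47, 8.15 and 4.46 at 6 h. It was therefore detected in replicates 1 and 3 only. STAT4, a signal transducer of cytokine receptors, measured 6.65, 7.19, 7.20 and 7.13 with DMSO and 10.17, 6.40, 10.12 and 6.50 at 6 h. CAVIN2, a caveolar coat protein, measured 6.79, 6.50, 6.54 and 6.42 with DMSO and 8.63, 5.68, 8.30 and 4.65 at 6 h. In both genes replicates 1 and 3 were above all DMSO arrays and replicates 2 and 4 below them, as in CYP26A1.

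TNFSF10, the death ligand TRAIL, measured 7.97, 9.13, 8.90 and 7.91 with DMSO and 9.25, 6.35, 10.18 and 6.15 at 6 h, the same order again. TGFB3, a growth factor of the TGF-beta family, measured 4.73, 6.16, 6.10 and 6.03 with DMSO and 7.95, 6.16, 8.88 and 5.62 at 6 h. Replicates 1 and 3 of TGFB3 were high and replicate 2 lay at the top of the DMSO range. Other genes split the arrays in other ways. DEFB103A, the antimicrobial beta-defensin, measured 7.68, 5.17, 5.76 and 7.40 with DMSO and 7.29, 10.41, 9.76 and 7.68 at 6 h, so replicates 2 and 3 were the high ones. KRTAP3-1, a hair keratin-associated protein, was highest in replicate 4 at 12.28 against 9.67, 9.11 and 9.01.

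**Figure D2:**
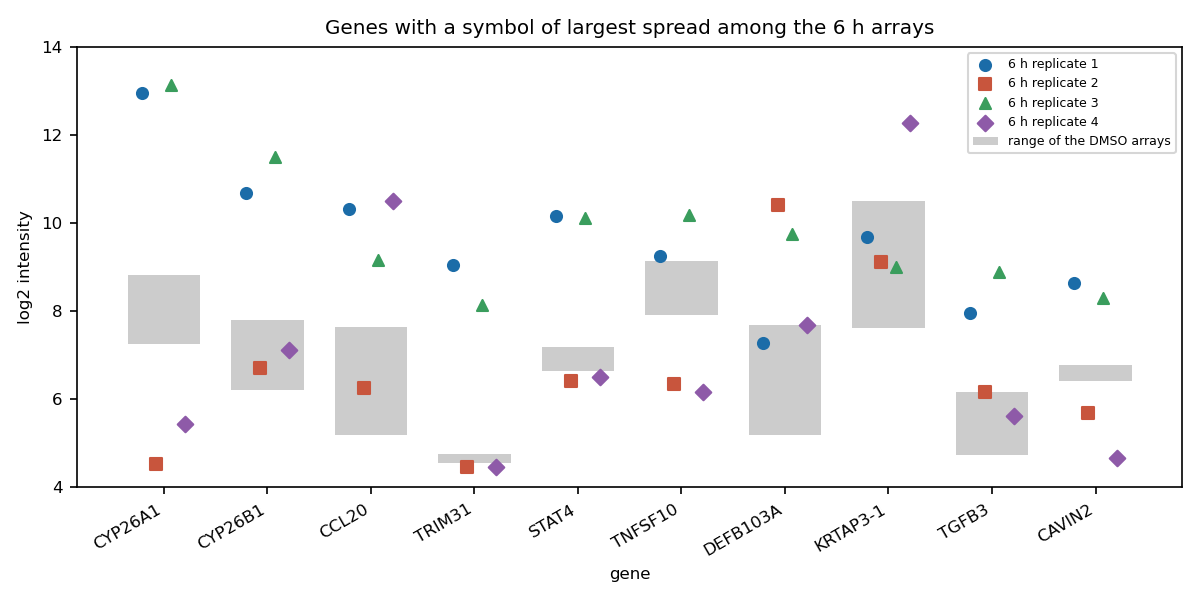
Log2 intensity at 6 h of the 10 genes with the largest SD among the 6 h arrays, as symbols by replicate, with a grey bar over the range of the 4 DMSO arrays. In CYP26A1, STAT4, TNFSF10 and CAVIN2, replicates 1 and 3 lay above the DMSO range and replicates 2 and 4 below it, and TRIM31 passed 6 only in replicates 1 and 3.

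These genes were chosen by their spread, so the sizes above are a description. Among the 100 features of largest SD, replicates 1 and 3 were both above replicates 2 and 4 in 44 and both below them in 20. Replicates 1 and 4 were both above replicates 2 and 3 in 15 and both below in 20, and the remaining pairing gave 0 and 1. Over all 12467 features the split by replicates 1 and 3 was the least frequent pairing. On the same measure, replicates 1 and 3 were both above replicates 2 and 4 in 1662 and both below in 2022. Replicates 1 and 2 were both above replicates 3 and 4 in 1860 and both below in 2074. Replicates 1 and 4 were both above replicates 2 and 3 in 2537 and both below in 2302. Another count set the values, not taken within the array set, against all 4 DMSO arrays. Replicates 1 and 3 were above all of them with replicates 2 and 4 below in 53 features (0.425%), and the reverse held in 48. Replicates 2 and 3 were above with 1 and 4 below in 64 (0.513%), and the reverse held in 43. The split by replicates 1 and 3 was thus one of several among the arrays and the leading one among the most variable genes.

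The arrays at 6 h were also less alike than those of the other groups. In replicates 2 to 4, which share an array set, the median SD over features was 0.181 with DMSO, 0.242 at 1 h, 0.273 at 3 h and 0.317 at 6 h. An SD of at least 1 was found for 28, 108, 176 and 304 features in that order. Each array was also given a weight by its spread around the fit, which holds the group means and the array set. The 6 h replicates 1 to 4 received 1.64, 0.637, 0.785 and 0.267, the last being the lowest of all 16 arrays.

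The count of calls depended on which 6 h arrays were used. With replicate 2 left out, 50 features passed, 18 higher and 32 lower, and with replicate 1, 3 or 4 left out 0 passed. With both replicates 2 and 4 left out 266 passed, 140 higher and 126 lower. With replicates 2 and 3 left out 1 passed, and with each of the other 4 pairs left out 0 passed. Because replicates 2 and 4 were known for their low retinoid genes, calls of those genes without them are not read as results. Over all features, the 6 h and DMSO arrays did not overlap in 247 (1.98%). They did not overlap in 23 of the 266 features, read over all 4 and 4 arrays. Weighting the arrays gave 195 calls, 81 higher (0.65%) and 114 lower (0.914%), of which 48 did not overlap. With weights, ALDH1A3 was called higher among the 14 retinoid metabolism genes, GPRC5A and TINAGL1 higher and HOXB5 lower among the 23 targets, and RXRA lower among the 14 receptors and coregulators. The weights come from these same values and, among the 6 h arrays, were lowest for replicates 4 and 2. The weighted calls are therefore not read as results either. Other lists held weighted calls too, among them CCL20, IL1A and IL36RN higher and SOX2, NOTCH3 and HES1 lower.

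**Figure D3:**
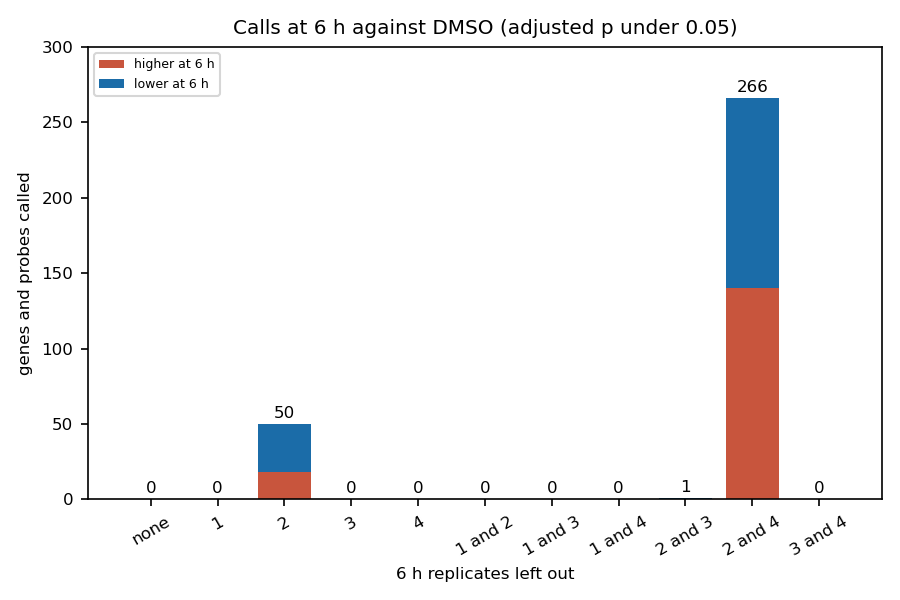
Number of features called at 6 h against DMSO (limma, adjusted p under 0.05), higher and lower stacked, by which 6 h replicates were left out. The count was 0 with all arrays, 50 without replicate 2 and 266 without replicates 2 and 4.

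The genes of smallest p stood on the same side of DMSO in all 4 arrays. They were ranked by p from these same arrays, and a small p favours arrays that agree. Their shared side and any lack of overlap are therefore a description. TXNRD1, the cytosolic thioredoxin reductase of the antioxidant response, had the smallest p among genes that were higher. It measured 9.19, 9.38, 9.84 and 10.56 with DMSO and 11.54, 11.19, 12.13 and 10.93 at 6 h, without overlap. The log2 fold change was 1.70 (SE 0.28), or 3.26-fold, with a limma adjusted p of 0.131. ERO1A, the oxidase that drives disulfide formation in the endoplasmic reticulum, was nearly equal in the 4 arrays, at 9.18, 8.98, 9.19 and 9.06 against 7.94, 7.72, 7.83 and 8.45 with DMSO. Its log2 fold change was 1.11 (SE 0.19, limma adjusted p = 0.131). KRT34, a hair-type keratin, measured 6.56, 6.48, 6.50 and 6.17 with DMSO and 7.65, 8.64, 8.16 and 8.60 at 6 h, a log2 fold change of 1.83 (SE 0.35, limma adjusted p = 0.131). Replicates 2 and 4, which lacked the high CYP26A1, held the highest KRT34.

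IL1A, the epithelial alarmin of the interleukin-1 family, measured 7.29, 6.62, 6.91 and 7.27 with DMSO and 8.20, 7.52, 8.75 and 7.86 at 6 h, a log2 fold change of 1.06 (SE 0.23, limma adjusted p = 0.148). TICAM2, an adaptor of Toll-like receptor signalling, measured 6.998, 6.66, 6.90 and 7.41 with DMSO and 8.20, 8.24, 8.24 and 7.65 at 6 h. MYPN, a sarcomere protein, measured 7.73, 7.17, 7.37 and 7.99 with DMSO and 9.20, 8.33, 9.22 and 9.002 at 6 h. In these 3 genes the groups did not overlap, nor did they in UBE2D3-AS1, an antisense RNA whose log2 fold change was 0.63. The share of all features that were higher without overlap was 1.03%. The others of the 10 genes of smallest p, SEMA3A, a repulsive guidance cue, AGFG1 and MTHFD2, a mitochondrial folate enzyme, had 1.17, 1.09 and 0.55 and overlapped.

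Among genes that were lower, SOX2, a transcription factor of basal squamous and stem cells, measured 7.10, 7.64, 8.02 and 7.48 with DMSO and 5.74, 6.80, 5.83 and 6.61 at 6 h. Its log2 fold change was -1.31 (SE 0.23, limma adjusted p = 0.131), and a further SOX2 probe gave -1.25. DLX5, a distal-less homeobox factor, measured 7.19, 8.64, 8.35 and 7.44 with DMSO and 5.38, 6.85, 5.86 and 6.52 at 6 h, a log2 fold change of -1.75 (SE 0.34, limma adjusted p = 0.131). In both genes all 4 arrays were low, and replicates 1 and 3 were the lowest.

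EPN3, an epithelial endocytic adaptor, measured 7.74, 8.34, 8.30 and 7.85 with DMSO and 6.83, 7.29, 7.15 and 7.26 at 6 h, and DBNDD1 measured 8.91, 8.999, 8.87 and 8.90 with DMSO and 8.30, 8.44, 8.44 and 8.31 at 6 h. ASAP3, a regulator of Arf GTPases, had -0.77 (SE 0.15). The groups did not overlap in these 3 genes. The share of all features that were lower without overlap was 0.955%. SSBP3, PROM2, GPR162, SMARCC2 and CERK had log2 fold changes of -0.83, -0.66, -1.30, -0.65 and -0.80 and overlapped. In each of them every 6 h array was below the DMSO mean of its own set. A further probe of SMARCC2, a chromatin-remodelling subunit, gave 0.01 and a further probe of DBNDD1 gave -0.08 against -0.54, so the size of each of these differences rests on 1 probe.

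**Figure D4:**
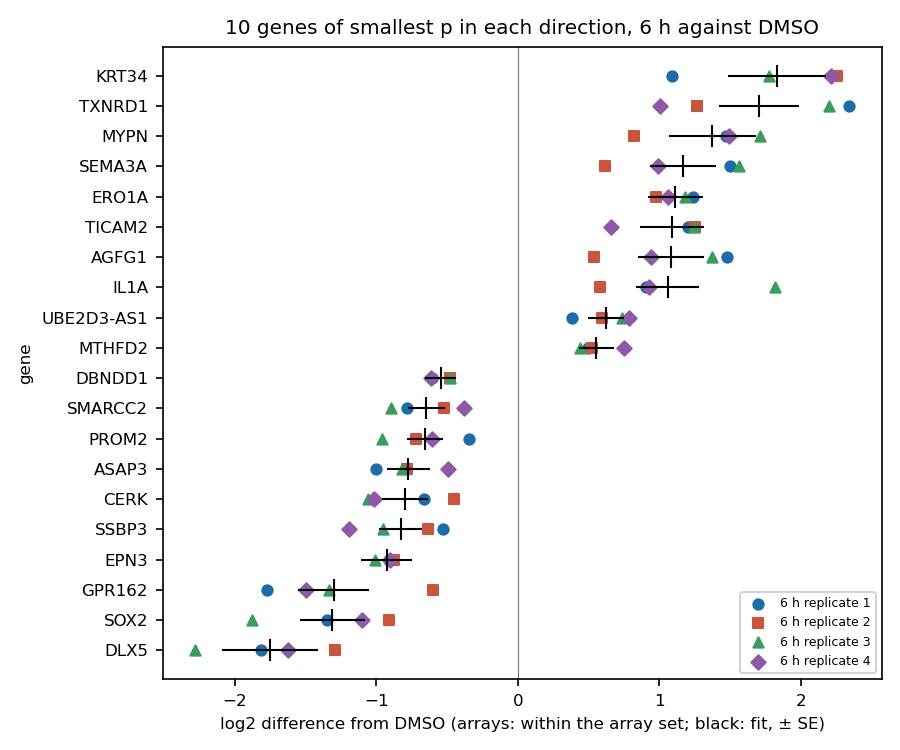
Log2 difference from DMSO of each 6 h array (symbols, within the array set) and fitted log2 fold change with its SE (black) for the 10 genes of smallest p in each direction. TXNRD1 had a fitted 1.70 and DLX5 a fitted -1.75, and all 4 arrays of each lay on the same side of 0. Choosing genes by p from these arrays favours such agreement.

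The gene lists were next described by their counts and medians, none having a call among its tested members at all 4 arrays. Lists and members were chosen with earlier results of these data known, so their counts and ranks are a description. Over all 12467 features, 6011 were higher and 6456 lower. The NF-kappaB and inflammatory cytokine list stood highest: 14 of 17 tested members were higher and 3 lower, the median was 0.97, and 7 had an unadjusted p under 0.05 against 4.81% of all features. Its medians by array were 0.68, 0.18, 0.72 and 1.04. CCL20, a chemokine for dendritic cells and lymphocytes, measured 6.18, 5.19, 5.43 and 7.63 with DMSO and 10.31, 6.26, 9.17 and 10.50 at 6 h, the largest log2 fold change of all features at 2.95 (SE 0.83, limma adjusted p = 0.201). Replicate 2 was inside the DMSO range. IL36RN, the interleukin-36 receptor antagonist, had 0.79 (SE 0.22). IL36G, which with IL1A was non-overlapping and is named after its values were seen, measured 8.59, 8.36, 8.46 and 8.68 with DMSO and 9.64, 8.92, 10.08 and 9.32 at 6 h. Of all features, 1.03% were higher at 6 h without overlap.

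Some members of that list were led by replicate 4, which had no high CYP26A1. RELB, a subunit of the non-canonical NF-kappaB dimer, measured 5.91, 6.30, 6.24 and 8.82 at 6 h, and NFKB2, its partner, 5.56, 6.14, 6.91 and 8.17. FOSL1, an AP-1 subunit on the immediate-early list, measured 6.90, 6.91, 6.52 and 8.89 at 6 h against 6.21, 5.33, 5.49 and 6.58 with DMSO. RELB and NFKB2 were chosen after their values were seen. Over the immediate-early and AP-1 list 20 of 33 members were higher with a median of 0.10, and by array the median was highest in replicate 4, at 0.49. CCN2, a matricellular growth factor, was the only 1 of the 33 whose groups did not overlap, beside 1.03% of all features higher without overlap. It measured 5.76, 5.71, 5.99 and 6.70 with DMSO and 7.21, 6.82, 6.97 and 7.19 at 6 h. F3, the tissue factor that starts coagulation, measured 8.56, 6.07, 5.93 and 8.32 with DMSO and 9.94, 9.13, 8.43 and 10.01 at 6 h, a log2 fold change of 2.15 (SE 0.49, limma adjusted p = 0.148).

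The interferon response list, by contrast with its median of 0.05, held members that were high in replicates 1 and 3 only. IFIT2, an interferon-induced RNA-binding protein, measured 7.56, 6.40, 6.91 and 6.63 with DMSO and 10.19, 6.71, 10.13 and 6.92 at 6 h. OAS1, the oligoadenylate synthetase, named after its values were seen, measured 7.99, 6.98, 7.13 and 7.02 with DMSO and 11.30, 6.75, 9.20 and 6.95 at 6 h. Other members did not: GBP1, a guanylate-binding protein, measured 10.33, 8.64, 8.96 and 9.15 with DMSO and 10.59, 9.81, 9.24 and 9.81 at 6 h, and 11 of the 25 tested members were lower. CASP9, the initiator caspase of the apoptosis list, was also high in replicates 1 and 3, at 10.09, 7.18, 9.38 and 7.68 at 6 h against 7.63 to 8.10 with DMSO.

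Keratinocyte differentiation genes had yet another order. Of 34 tested members of the cornified envelope list 18 were higher, the median was 0.06, and by array it was -0.13, 0.30, 0.13 and -0.02. CRCT1, a late cornified envelope gene, measured 7.51, 4.76, 4.73 and 6.61 with DMSO and 7.53, 7.50, 7.83 and 8.76 at 6 h. SPRR2D, a small proline-rich envelope precursor, measured 8.49, 6.91, 6.94 and 7.52 with DMSO and 7.78, 9.30, 8.88 and 9.37 at 6 h. In both genes replicates 2 to 4 were higher than their DMSO arrays, and replicate 1 was level or lower. SBSN, a suprabasal secreted protein, was below 6 in all DMSO arrays and reached 6.96 and 6.17 in replicates 2 and 3. KRT16, a stress keratin, had a log2 fold change of 1.13 (SE 0.38), but a further probe gave -0.29.

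The developmental lists were on the lower side. Of 17 tested Notch genes 13 were lower, the median was -0.45 and 7 had an unadjusted p under 0.05 and were lower, against 6.55% of all features. The median was below 0 in each array, at -0.22, -0.18, -0.40 and -0.33. NOTCH3, a Notch receptor, measured 8.06, 9.80, 9.75 and 9.38 with DMSO and 6.70, 9.46, 8.63 and 8.55 at 6 h, a log2 fold change of -0.91 (SE 0.19, limma adjusted p = 0.148). HES1, a transcriptional repressor downstream of Notch, measured 8.20, 8.19, 8.28 and 8.18 with DMSO and 7.44, 7.91, 7.50 and 7.93 at 6 h, without overlap. Of the 17 tested Notch genes 2 were lower without overlap, beside 0.955% of all features. HEY1, another such repressor, had -1.02 (SE 0.29).

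Of 21 tested homeobox and developmental factors 16 were lower and the median was -0.16. Beside DLX5, DLX3 measured 9.65, 10.91, 11.07 and 10.02 with DMSO and 7.95, 9.93, 9.36 and 9.36 at 6 h, a log2 fold change of -1.27 (SE 0.30, limma adjusted p = 0.148). MSX2, a BMP-responsive homeobox factor, had -1.06 (SE 0.25). On the TGF-beta, BMP and ID list 10 of 14 tested members were lower and the median was -0.16. ID2, a dominant-negative helix-loop-helix factor, measured 10.75, 10.50, 10.66 and 9.64 with DMSO and 9.18, 9.82, 8.32 and 8.11 at 6 h, a log2 fold change of -1.53 (SE 0.39, limma adjusted p = 0.183). ID3 measured 12.51, 12.86, 12.87 and 12.16 with DMSO and 11.79, 11.54, 11.39 and 12.001 at 6 h, without overlap. Of the 14 tested members of that list 1 was lower without overlap, beside 0.955% of all features. SMAD6, an inhibitor of BMP signalling, had -0.91 (SE 0.24).

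Genes of proliferation lay close to 0. Of 33 tested S phase and mitosis genes 15 were higher and 18 lower, with a median of -0.03 and a range of -0.45 to 0.35. TYMS, thymidylate synthase, had -0.31 (SE 0.12). Of the growth arrest genes GADD45A was higher in all 4 arrays, at 9.29, 9.47, 9.21 and 9.68 against 8.01, 8.78, 8.93 and 9.12. The stress and unfolded protein response list had 11 of 17 higher and a median of 0.18. TXNRD1 and the asparagine synthetase ASNS did not overlap, beside 1.03% of all features higher without overlap. ASNS measured 10.31, 10.16, 10.06 and 10.08 with DMSO and 11.01, 10.39, 10.64 and 10.55 at 6 h. The medians of the remaining lists were -0.04 for squamous basal genes, -0.02 for simple epithelial genes, 0.05 for growth arrest, 0.04 for apoptosis, -0.03 for hypoxia and glycolysis, -0.20 for the circadian clock, 0.29 for tissue factor and proteases and -0.02 for housekeeping genes.

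**Figure D5:**
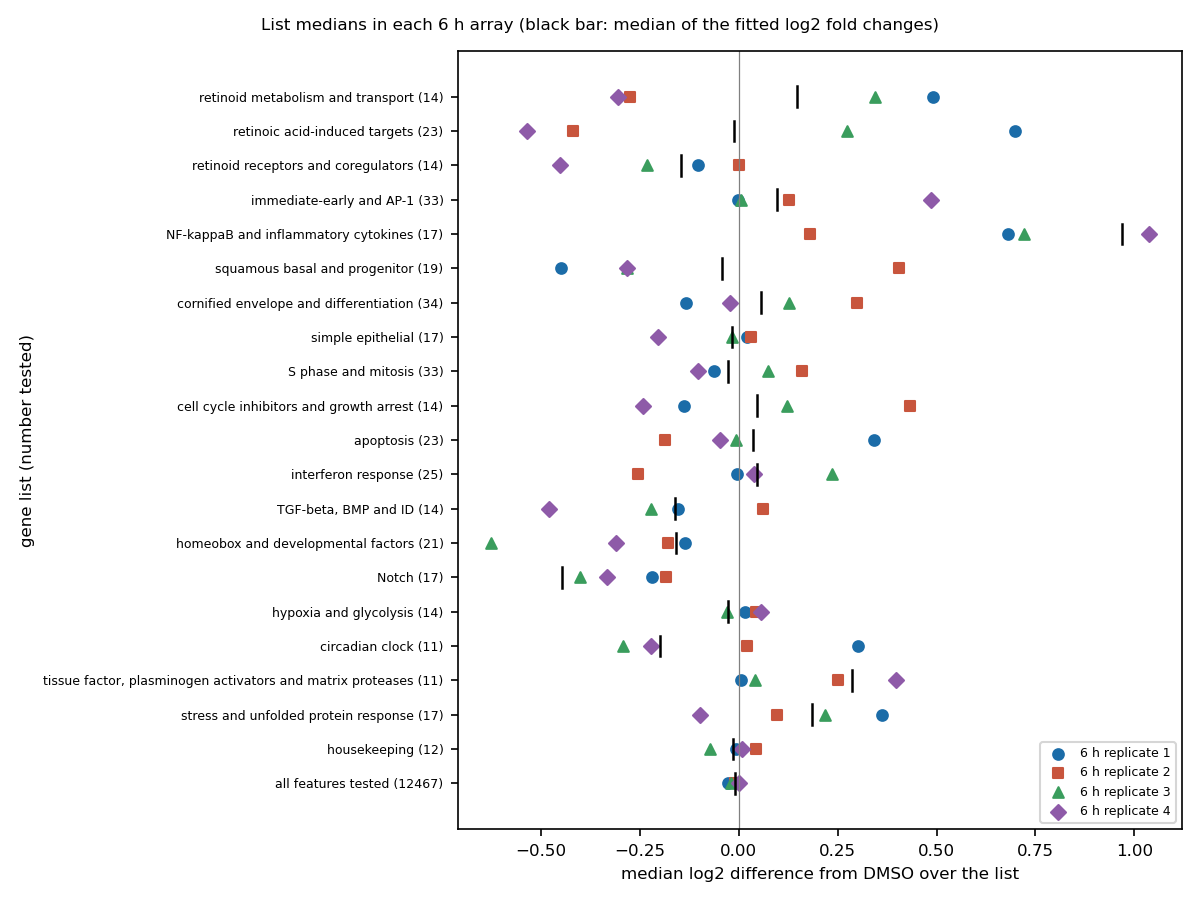
Median log2 difference from DMSO over each gene list in each 6 h array (symbols) and median of the fitted log2 fold changes (black bar), with the number of tested members in brackets. Both lists of retinoid genes were above 0 in replicates 1 and 3 and below 0 in replicates 2 and 4, while the Notch list was below 0 in all 4.

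Markers of cells other than keratinocytes were read beside these results. In RNA of whole cultures, fewer cells of a type and less RNA per cell cannot be told apart. Of 6 endothelial genes 0 reached 6 in all 8 arrays and 4 stayed below 6 in all 8, PECAM1 and KDR among them, but CDH5, an endothelial cadherin, was high where CYP26A1 was, at 4.37, 4.51, 4.34 and 4.54 with DMSO and 7.36, 4.35, 7.06 and 4.45 at 6 h. The log2 of the summed level of the endothelial list ran from 7.49 to 7.99 with DMSO and from 7.49 to 8.80 at 6 h. For the 9 fibroblast genes it ran from 8.25 to 8.81 with DMSO and from 8.30 to 9.09 at 6 h, and DCN, a matrix proteoglycan, reached 6.96 in 6 h replicate 2 and 6.18 in replicate 3. For the 9 leukocyte genes it ran from 8.67 to 9.04 with DMSO and from 8.57 to 9.45 at 6 h. PTPRC, PECAM1 and COL3A1 did not exceed 4.82 in any 6 h array. Other members were brighter at 6 h: ACTA2 ran from 6.47 to 8.22, CD68 from 7.22 to 8.52 and VWF from 5.99 to 7.65. The part that such cells might have in the results was not tested beyond these values.

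The second comparison asks whether levels at 6 h differed from those at 3 h. limma called 0 of 12467 features (0%), with a smallest adjusted p of 0.0669 and 874 features at an unadjusted p under 0.05. SOX2 was 1.39 higher at 6 h than at 3 h on the log2 scale (limma adjusted p = 0.0843). It stood at -2.70 at 3 h and -1.31 at 6 h against the same DMSO arrays, which the comparisons share. DLX5 stood at -2.84 and -1.75, and HBEGF, an EGF receptor ligand, at 2.38 and 0.85. CCL20 had 6.65 at 3 h and 2.95 at 6 h. ERO1A had 0.99 and 1.11, KRT34 had 1.57 and 1.83, and ID3 had -1.01 and -0.92. The fitted values of the first 4 genes were smaller in size at 6 h than at 3 h and those of ERO1A, KRT34 and ID3 were close at both times, but none of these differences passed the test. The 6 h values average over 4 arrays that disagree, replicates 2 and 4 among them. A change with time cannot be told apart from that disagreement. Across the alternatives the 6 h value ran from -1.72 to -0.91 for SOX2 and from -2.17 to -1.33 for DLX5.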

How the data were processed

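Total RNA of ME180 cells was labelled with biotin and measured on Illumina bead arrays, per the labels' protocols. The authors deposited 1 log2 value per probe and array, already normalized between arrays, as the nearly equal array distributions show. In the submitters' processing notes limma is the tool named, without its version or what it was used for. Which background correction was applied and which logarithm was taken is not given in the sources used here, and the values were read as base 2. From the deposited table before normalization the order of its rows alone was taken, because its 32 value columns could not be assigned to samples.

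In that row order the replicate 1 arrays stood 1 row too low over 77.6% of the 47230 rows. Across probes they correlated with the other arrays at r = 0.979 before the break, 0.325 after it as deposited and 0.979 once moved up by 1 row, and the moved values were used. For each gene the probe of highest mean among those reaching 6 in at least 4 of 16 arrays was tested, and probes without 1 symbol entered on their own. Of the probes, 30113 had 1 symbol in the platform annotation, 8 had several and 17109 had none there.

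The model was fitted in R 4.3.3 with lmFit and eBayes of limma 3.58.1 (two-sided, Benjamini-Hochberg over 12467 features, called at an adjusted p under 0.05) with the 4 group means and the array set, replicate 1 against the rest, over all 16 arrays (11 residual degrees of freedom). It was first tested on simulated data. Differences of single arrays are taken from the DMSO arrays of the same set. Genome sequence was used in the promoter search only and did not enter the fit. The number of arrays limits the precision, and the median SE of a log2 fold change was 0.188.

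The rule for named genes took the 10 of smallest p in each direction, since none passed the test, every tested member of the 3 retinoid lists, the 3 members of smallest p of each other list and the 10 of largest SD among the 6 h arrays. Members and lists were chosen with earlier results of these data known. Same-numbered arrays of the DMSO and 6 h groups deviated together at r = -0.11, 0.279 and 0.325 in replicates 2 to 4. For 3 h with 6 h the values were 0.106, 0.25 and 0.64, and for 1 h with 6 h they were 0.422, -0.361 and -0.371. These values were uneven, and the numbers were not taken to pair the arrays in the main fit. A replicate block was fitted as an alternative. Alternatives changed the block, filter, row order, variance model, weights, scaling, probe choice and arrays.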

Additional observations from a re-analysis of the deposited data

Results flagged for a closer look

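Within a group of 4 arrays, a value was singled out where its gap to the nearest of the others, divided by the range of the group, passed Dixon's critical value. Of 234 gene-by-group sets over the 117 named genes 21 were singled out, and chance alone does so for about 1 in 20. In 16 of the 21 the array was replicate 1, which the fit treats as a set of its own. The causes were not tested.

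At 6 h, replicate 4 stood apart in TICAM2, at 7.65 against 8.20 to 8.24 in the others, in HDAC3, at 10.77 against 10.46 to 10.48, and in FOSL1, at 8.89 against 6.52 to 6.91. Replicate 2 stood apart in LCN2, at 9.22 against 11.61 to 11.93. Replicate 1 stood apart in RETSAT at 7.89, in FABP5 at 12.04, in RARG at 6.55 and in RXRA at 9.46.

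With DMSO, replicate 1 was the higher array in MTHFD2, at 10.15 against 8.98 to 9.17. It was the lower array in PROM2 at 9.95, SMARCC2 at 8.07, LAMB1 at 7.61, SMAD3 at 8.92, CYP1B1 at 4.48, PPARD at 6.66, NCOA1 at 6.76, CREBBP at 7.86, FAT2 at 6.68, STAT4 at 6.65 and TGFB3 at 4.73. Replicate 3 stood apart in HES1, at 8.28 against 8.18 to 8.20. CYP26A1 was not singled out at 6 h, since its 4 values form a pair of high and a pair of low arrays.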

How the results depend on the processing

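For 6 h against DMSO, 29 of 34 alternatives gave 0 calls by limma as the main fit did, among them no block for the array set, the replicate block (0), rows as deposited and either filter. Array weights gave 195. Leaving out single arrays gave 0 to 50, with 2 without DMSO replicate 4 and 50 without 6 h replicate 2. Leaving out 6 h replicates 2 and 3 gave 1, and replicates 2 and 4 gave 266. For 6 h against 3 h, leaving out single arrays gave 0 to 9, the fit without the replicate 1 arrays gave 1, a mean trend gave 3, and leaving out 6 h replicates 1 and 3 gave 106 and replicates 1 and 4 gave 2. The replicate block gave 0 here too. The cause of these differences was not tested.

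Of 3965 values of named genes under the alternatives, 3762 kept their direction and their side of the threshold, 89 kept the direction and passed the threshold, and 113 changed sign without a call. DHRS3 alone turned from below to above 0 and past the threshold, at 1.201 without 6 h replicates 2 and 4, which is a description, since those arrays were known for their low retinoid genes. Further probes of RDH11, FABP5, MED1, KRT16, ATF4 and SMARCC2 had the opposite sign. Genes near the lowest values of the array, such as TRIM31 with DMSO, have no measured order there.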
